A study of Mus musculus with 10 samples.

Results

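The colony-stimulating factors and their receptors are the cytokine system that keeps macrophages alive and lets them divide. The family described here comprised 9 genes, fixed by name for their role in microglia survival: the ligand genes Csf1, Il34, Csf2 and Csf3 and the receptor genes Csf1r, Csf2ra, Csf2rb, Csf2rb2 and Csf3r. All 9 were found in the array table, each with 1 probe set row of its own and 0 rows shared with another gene, among 18976 genes with a row of their own. Expression was measured on 5 arrays of primary microglia treated with 5 ng/ml recombinant human TGFb1 for 24 h and on 5 arrays of untreated control microglia. In both groups the cells were wild type, came from newborn C57BL/6 pups, were shaken off mixed glial cultures aged 14 days that had grown with 10% fetal calf serum, and were kept free of serum during the 24 h of the experiment. They are cultured cells, and the labels do not tell if replicate arrays stem from different cultures.

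CSF1 and IL-34 are the ligands of CSF1R, a receptor tyrosine kinase on which microglia depend for survival in the mouse brain. Neurons are a known source of IL-34, and glia of CSF1. CSF2, or GM-CSF, binds a private alpha chain (Csf2ra) and signals through the common beta chain (Csf2rb), which interleukin-3 and interleukin-5 receptors also use. In the mouse a second beta chain gene, Csf2rb2, serves interleukin-3. CSF3, or G-CSF, binds the homodimeric receptor CSF3R and is best known for driving neutrophil production.

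The values given here are the authors' median intensities of each probe set on a linear scale. The table does not state which arrays this median covers and ties it to no group, so no value is given here as that of treated or of control microglia, and none carries an SD or an n per group. Which array was treated and which was a control could not be read from the names of the per-array columns, and no difference between TGFb1-treated and control microglia was tested here. As the RNA is from all cells shaken off a culture, fewer cells of a type and less RNA per cell cannot be told apart. Probes of different genes bind with different strength, so the intensities place each gene within the table and are not transcript numbers per cell.

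The receptor genes lay at the top of the table and the ligand genes in its middle or lower part. The 5 receptors had median intensities between 172 and 1721 and the 4 ligands between 3.28 and 21.2, so that the groups did not overlap. The median of all 18976 genes was 15.8, and 25% of the genes lay at or below 6.19 and 25% at or above 73.4. All 5 receptors were among these highest 25%, whereas 0 of the 4 ligands were. Csf1 alone among the ligands exceeded the median gene.

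**Figure D1:**
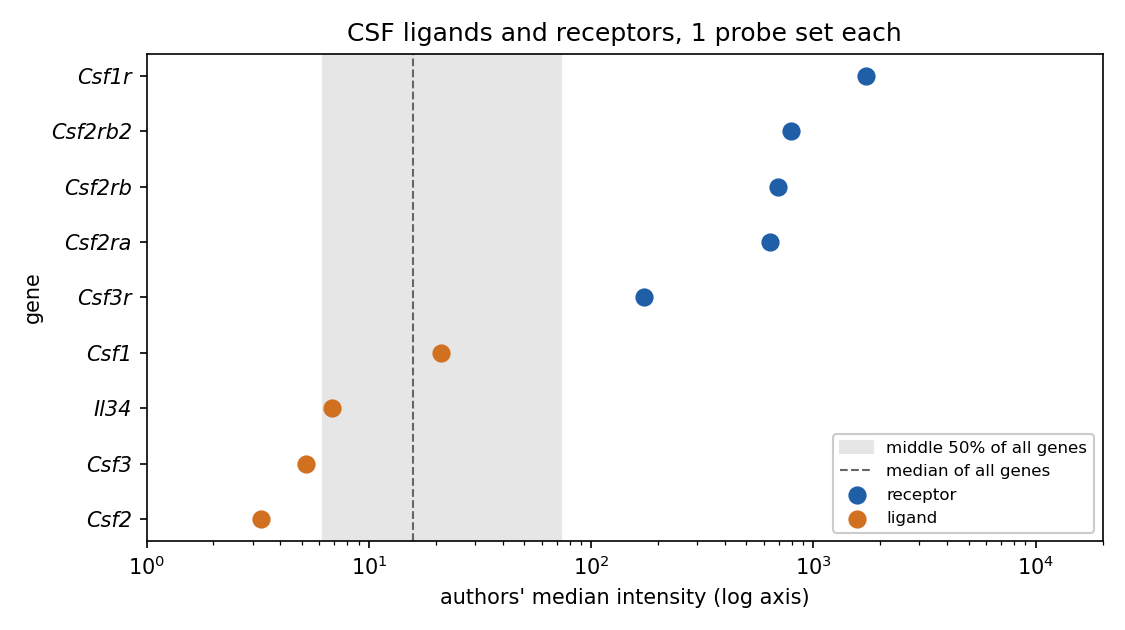
Authors' median intensity (log axis; the arrays it covers are not stated) of the 5 receptor genes and 4 ligand genes, 1 point per gene, with the middle 50% of all genes in grey and the median gene as a dashed line. All receptor points lie right of the grey band, from 172 to 1721, and all ligand points lie at or left of 21.2.

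Csf1r (probe set 10456071), which encodes the receptor for CSF1 and IL-34, had the highest value of the family, at a median intensity of 1721. Of all genes 99.2% had a lower value, and 149 had a higher one. The gap to the next member, Csf2rb2, was 1.11 on the log2 scale. Among the 194 genes that the table assigns to the KEGG pathway of cytokine and receptor interaction, Csf1r ranked 2, behind the chemokine gene Ccl3 at 2567.

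The beta chain genes and the GM-CSF receptor alpha chain gene followed closely on each other. Csf2rb2 (probe set 10430302) had a median intensity of 796, Csf2rb (probe set 10425066) of 696 and Csf2ra (probe set 10468893), the alpha chain that binds GM-CSF, of 641. They exceeded 97.8%, 97.4% and 97.1% of all genes in this order, and ranked 7, 9 and 11 in the cytokine pathway. The gaps between neighbours were 0.19 and 0.12 on the log2 scale. The spread between arrays was not analysed here, and these 3 genes are not put in an order of expression.

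The beta chain genes are neighbours on chromosome 15 and near-copies of each other, which could bear on both of their values. Their longest coding sequences in the GENCODE annotation of GRCm38, of 2688 bases for Csf2rb and 2634 bases for Csf2rb2, were identical at 95.2% of 2628 aligned positions. The longest identical stretch was 242 bases. Of all windows of 25 bases, a usual length of probes on such arrays, 46.1% in the coding sequence of Csf2rb were also present in Csf2rb2 transcripts, and 45.9% in Csf2rb2 were present in Csf2rb. The first 150 coding bases are shown to make this visible, with the 6 positions at which the genes differ in capitals.
Csf2rb: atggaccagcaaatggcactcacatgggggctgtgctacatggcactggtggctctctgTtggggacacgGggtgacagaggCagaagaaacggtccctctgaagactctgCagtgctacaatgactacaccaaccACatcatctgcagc
Csf2rb2: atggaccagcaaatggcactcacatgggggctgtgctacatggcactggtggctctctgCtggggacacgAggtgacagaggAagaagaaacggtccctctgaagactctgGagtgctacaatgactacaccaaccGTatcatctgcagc
Probe sequences were not used here, so how far each probe set measured its own gene alone was not tested.

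Csf3r (probe set 10508074), the receptor for G-CSF, had the lowest value of the receptors, at a median intensity of 172. It still exceeded 87.8% of all genes and ranked 26 of 194 in the cytokine pathway. Neutrophils are the cells best known for this receptor. All 10 listed neutrophil marker genes lay below the median gene, between 2.70 for Ly6g and 15.4 for Cebpe, a transcription factor of granulocytes. A value below the median gene is not a detection call, and which cells gave the Csf3r value was not tested. In the coding sequence of Csf3r 36.6% of the windows of 25 bases also occurred in the annotated processed pseudogene AC105061.2, and what this copy adds to the value of the probe set was not tested.

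Csf1 (probe set 10501164) was the ligand with the highest value, at a median intensity of 21.2. It exceeded 54.9% of all genes and ranked 63 in the cytokine pathway, where 36.6% of the 194 genes reached the median of all genes. The row of Csf1 lists 4 Ensembl and 3 RefSeq transcripts, and which of them the probes measure was not tested. Secreted and membrane-bound forms of CSF1 arise by splicing, and this value does not separate them. The gap between Csf1 and Csf3r was the widest between neighbours in the family, at 3.02 on the log2 scale.

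Il34 (probe set 10581664), the other ligand of CSF1R, had a median intensity of 6.83 and exceeded 28.3% of all genes. Csf3 (probe set 10380999), encoding G-CSF, had 5.22 and exceeded 19.3%. Csf2 (probe set 10385912), encoding GM-CSF, had 3.28 and exceeded 6.14%, the lowest value of the family. These intensities lay within the range of marker genes of lymphocytes. The 6 markers of T, B and NK cells ranged from 2.14 for Klrb1c to 12.2 for Cd3e. Of these 6, 2 were higher than Il34, 3 higher than Csf3 and 5 higher than Csf2, and 0 were higher than Csf1. Of the 10 neutrophil markers, 6 were higher than Il34, 7 than Csf3, 9 than Csf2 and 0 than Csf1. Of the 6 endothelial markers, 5 were higher than Il34, 5 than Csf3, 6 than Csf2 and 1 than Csf1. Without detection calls in the columns used, whether Il34, Csf3 and Csf2 transcripts were present at low amounts was not tested.

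The table's own annotation placed 8 of the 9, all but Il34, in the cytokine and receptor interaction pathway. The JAK-STAT pathway held 6 of the 9, and Csf1, Csf1r and Il34 were not among them. The UniGene tissue entries named brain for 7 of the 9, and the 2 without it were Csf2 and Csf3. These 2 had the shortest tissue entries of the family, with 4 tissues for Csf2 and 3 for Csf3, against 38 for Csf1. Of 31 Ensembl and RefSeq transcripts on the 9 rows, 26 were found in the annotations used here and all 26 belonged to the named member.

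Genes that carry or dampen the signal of CSF1R had high values as a list. The list mixes both kinds, and they were not counted apart. The 34 measured genes of 35 had a median intensity of 203, against 15.8 for all genes, and 27 of them were among the highest 25% of genes. Tyrobp, the adaptor DAP12, had the highest value, at 3154, and alone exceeded Csf1r. Pik3ap1, an adaptor of phosphoinositide 3-kinase, followed at 1351. The lowest values were those of Spry1 and Fgr, each at 11.3. Spry1 is an inhibitor of receptor tyrosine kinase signalling and Fgr a Src family kinase.

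The JAK-STAT genes used by the GM-CSF and G-CSF receptors had a median intensity of 89.8 over 17 genes. Hcls1, an adaptor of haematopoietic cells that acts in G-CSF signalling, and Jak1 were highest, at 725 and 564. Jak2, the kinase bound to the common beta chain, had 59.2. The feedback inhibitor genes Cish, Socs1 and Socs2 lay below the median gene, at 8.91, 10.7 and 7.63, while Socs3 had 25.9. Of the other listed genes downstream of the receptors, Pim1, Myc, Bcl2l1 and Mcl1 were higher, at 95.0, 97.8, 204 and 551. Pim2 had 9.42. The activity of STAT5 was not tested. In total 13 of the 17 genes were at or above the median gene and 10 among the highest 25%.

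Transcription factors that act on the Csf1r locus in macrophages had a median intensity of 236 over 17 genes. Spi1, encoding PU.1, was highest at 873, followed by Irf8 at 557. Runx1 had 535. The table holds Spi1 under its older symbol. Of the 17 genes, 12 were among the highest 25%. Cebpd, Fos, Egr1 and Cebpb lay between the median gene and that limit, at 16.1, 21.0, 22.8 and 27.3. Only Cebpe, at 15.4, was below the median gene.

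Among relatives of the receptors and their ligands most values were low. The 13 measured genes of 14 had a median intensity of 7.18, and 9 of the 13 lay below the median gene. Il3ra, the alpha chain of the interleukin-3 receptor that pairs with the beta chains above, was highest at 83.2, and Kitl, the ligand of KIT, followed at 42.9. Il5ra, the alpha chain for interleukin-5, had 3.68. Il3 and Il5, the other ligands of the beta chain receptors, had 2.36 and 2.53. Kit and Flt3, relatives of CSF1R that act in blood progenitors, had 5.32 and 10.6.

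Genes for proteins that release or bind CSF1 and IL-34 had widely spread values. Of the 7 listed, 5 were at or above the median gene and 4 among the highest 25%. Adam17, a protease that sheds membrane-bound CSF1, and Furin, a proprotein convertase, had 586 and 354. Ptprz1, a further receptor of IL-34 in neural cells, had 2.14, and Sdc1, which also binds IL-34, had 19.8. Genes that GM-CSF induces in macrophages and dendritic cells had a median of 23.9 over 12 genes. Of the 12, 6 were at or above the median gene and 3 among the highest 25%, shares like those of all genes. Cd209a, a lectin of dendritic cells, and Pparg, a nuclear receptor that GM-CSF induces in alveolar macrophages, were highest at 232 and 202, while Chi3l3 had 2.54.

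**Figure D2:**
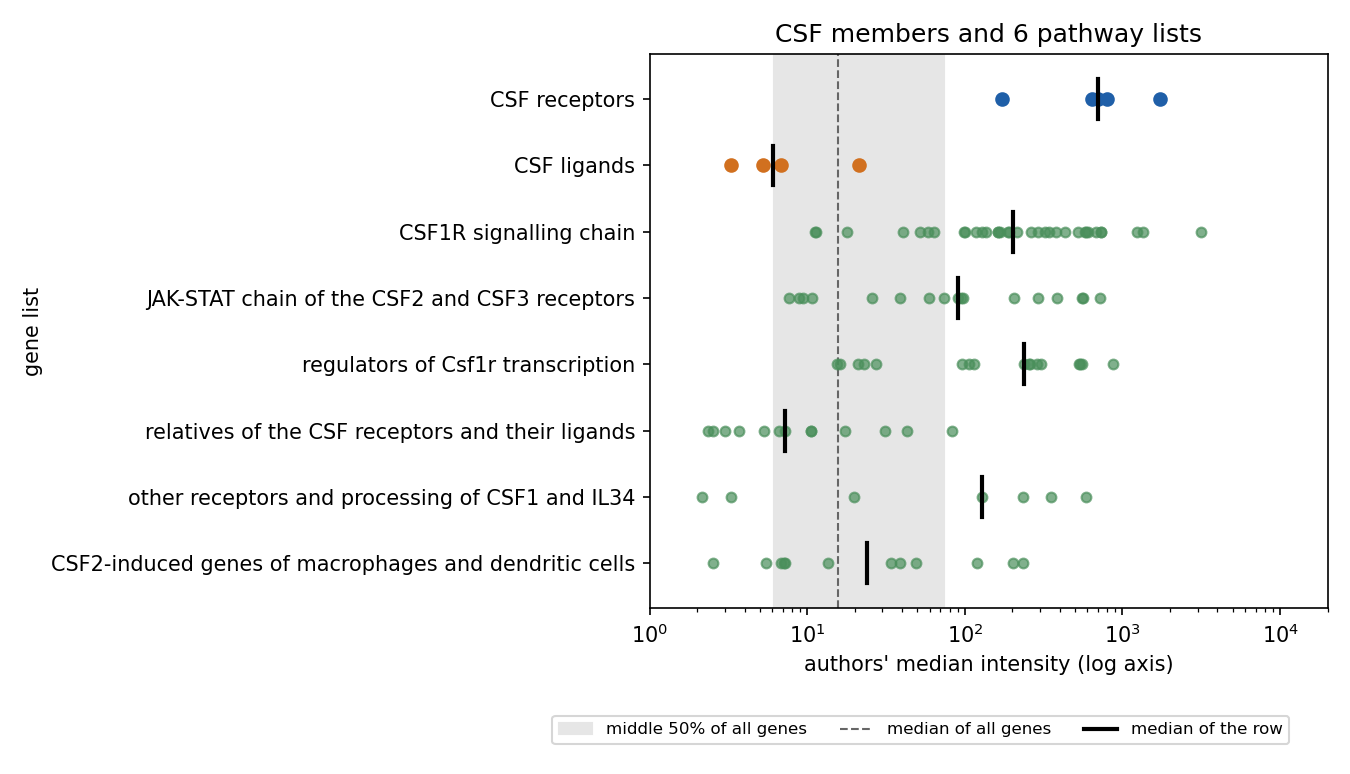
Authors' median intensity (log axis) of the CSF receptors and ligands and of the genes of 6 pathway lists, 1 point per gene, with a black bar at the median of each row of points. The bars of the receptors (median 696) and of the CSF1R signalling list (median 203) lie right of those of the ligands (median 6.03) and of the relatives list (median 7.18), while points of the CSF1R signalling list overlap with both.

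Marker genes of microglia had high values in the same table, with a median intensity of 670 over 14 genes, Csf1r among them. Tyrobp and Trem2, at 3154 and 1956, were among those that exceeded Csf1r. Of the 14, 10 were among the highest 25% of genes. Sall1, P2ry12 and Aif1 lay between the median gene and that limit, at 21.6, 40.4 and 72.2, and Siglech, at 6.48, was the one marker below the median gene. Markers of border macrophages and monocytes spread widely, between 3.23 for Ccr2 and 2052 for Ms4a7. Of the 9 measured markers of these cells, 5 were at or above the median gene and 4 among the highest 25% of genes. Those cells also express Csf1r and the GM-CSF receptor, and their part in the receptor values was not tested. Markers of astrocytes, which can produce CSF1 and are present in mixed glial cultures, had a median of 8.65, and 2 of 10, Aldoc and Aldh1l1, exceeded Csf1. The highest marker was at 58.0 for the oligodendrocyte lineage, 18.9 for fibroblasts, 41.0 for endothelial cells and 7.09 for neurons, for which 3 of 5 genes were measured. The medians of these lists were 7.85, 10.8, 9.18 and 5.66 in this order.

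**Figure D3:**
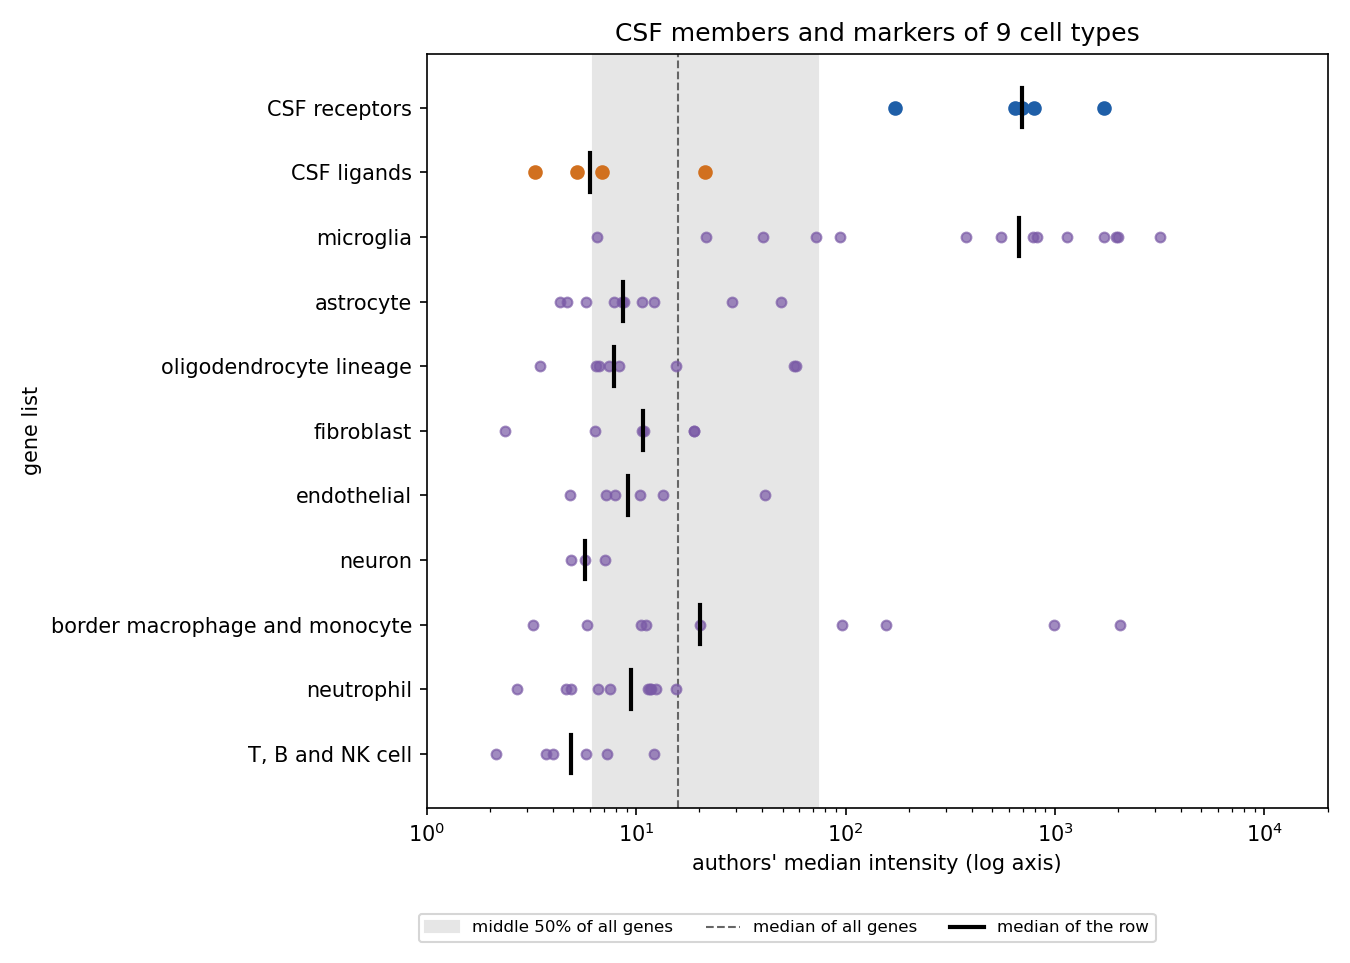
Authors' median intensity (log axis) of the CSF receptors and ligands and of marker genes of 9 cell types, 1 point per gene, with a black bar at the median of each row of points. The bar of the microglia markers (median 670) lies within the range of the CSF receptors, while single microglia markers lie on both sides of that range, from 6.48 to 3154. All ligand points lie left of that bar. Csf1r is both a CSF receptor and a listed microglia marker, and is drawn in both rows.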

How the data were processed

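Total RNA, 500 ng for each array with RNA integrity numbers of 8.6 to 10, was amplified with random primers and hybridised as biotin-labelled cDNA to whole transcript arrays. The submitters' processing notes name RMA. No source used here gives its version, the array model of these samples or the genome build, and coordinates are left out. The array named in the study's methods is given for sorted microglia, with another amplification kit, and was not assumed for these samples. The precision is limited by the number of arrays, 5 treated and 5 control, and no read depth applies.

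The deposited table holds 28361 probe set rows, of which 21041 name a single gene symbol, 2247 several, 5061 none and 12 a date in place of a symbol. One column was used, the intensity that the authors deposited as median expression, on a linear scale. For each symbol the row with the highest value was kept. The 10 columns of values per array carry names that match no label and were used in no step. A further 5 columns hold the authors' own paired comparison of the groups (effects, p-values and FDR) and were not used. The planned limma fit, its counts and the alternatives to it need the group of each array and could not be made, and the likeness of genes and the spread over these unmatched columns were not computed. This departs from the design, which assumed values per sample.

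The members and lists were chosen with earlier results of these data known. Named were all 9 members and the 2 highest genes of each of 6 pathway lists. Other genes were named after their values were seen, and most members of the pathway lists enter the counts without being reported singly. In the lists 4 genes were matched through another symbol with the RefSeq table of GRCm38.p6. Coding sequences were those of GENCODE M21 transcripts, the longest per gene, aligned with Biopython 1.88. Levels are described as the percent of genes with a lower value, computed with pandas 2.3.3 in Python 3.11.15. Alternatives were averaging of all rows of a gene, every row with one symbol and genes at or above the median only.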

Additional observations from a re-analysis of the deposited data

How the results depend on the processing

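The order of the 9 members was the same when every row of a gene was averaged, since each had 1 row. The count of members at or above the median level was 6 against the median of all genes, of every row with one symbol and of every row of the table, the last chosen after seeing the data. The percent of genes with a lower value shifted by at most 0.43 points when every row with one symbol was counted, and by at most 4.88 points when every row of the table was counted. Among genes at or above the median only, the 6 members that remained exceeded 9.74% (Csf1) to 98.4% (Csf1r) of them, lower in all 6 by construction. The block, the FDR threshold, centring, another adjustment, a pseudocount, a variance trend and leaving out replicates concern the fit of TGFb1-treated against control microglia and were not run. No paired analysis was possible because the columns of values per array match no sample label. Differences between neighbouring members were not set against a spread between arrays.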
